A study of Mus musculus with 102 samples.

Results

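The comparison is between spleens of old male mice labelled mTOR and spleens of old male mice labelled WT, with 3 animals of each genotype aged 21 or 23 months. These 6 libraries were chosen by genotype, tissue and age, and they are 6 of the 102 RNA-sequencing libraries of the series, which also covers brain and spleen across the lifespan. In the WT group replicate 1 was 21 months old and replicates 2 and 3 were 23 months old. In the mTOR group replicate 2 was 21 months old and replicates 1 and 3 were 23 months old. The titles of all 6 animals carry BL6J, and the labels give the genotype by name without describing the allele, so what limits it as a model cannot be stated here. A further 6 spleens, 3 WT and 3 mTOR from males aged 5 months, came from the same table and are used for the spread and for a side-by-side view. Their titles carry BL6J too. The design text places such animals in a study of whether candidate anti-ageing interventions act on age-sensitive traits. For a view of ageing, 45 other spleens of the series are used, all with BL6J in their titles. They include 7 at 3 months, 7 at 20 months and 5 at 26 months.

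The kinase mTOR works in 2 complexes, mTORC1 and mTORC2. In mTORC1 it joins amino acid and growth factor signals to protein synthesis, ribosome production and lipid synthesis, and restrains autophagy. In lymphoid tissue mTOR is known for its part in the growth of activated T cells, in the germinal centre reaction, in which B cells mutate and select their antibodies, and in the making of antibody-secreting plasma cells. The spleen holds these reactions in its white pulp. Its red pulp filters blood, and the marginal zone between them carries macrophages that take up blood-borne particles.

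Between 7733716 reads in genes (old mTOR replicate 1) and 14112504 (old WT replicate 1) were recovered per library over the 12 spleens. No library held a read of Xist and each held reads of Ddx3y, as the male labels state. Same-group libraries differed by more than read sampling allows in all 12 pairs, so no library was a copy of another. Values are normalized reads, given for replicates 1, 2 and 3 in that order, and fold changes are log2 differences, mTOR minus WT, of the normalized value plus 1, with their standard error. A gene is called when its limma p, adjusted by the Benjamini-Hochberg method over the 15512 genes tested, is under 0.05. Calling favours genes whose groups do not overlap, so a lack of overlap in a called gene is a description and no further support.

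In the old animals 281 genes were called, 1.81% of those tested. Of these, 126 were higher in mTOR spleen (0.812% of tested genes) and 155 were lower (0.999%). A total of 2336 genes had an unadjusted p under 0.05. The lower genes included 8 of 17 effector T-cell genes, 7 of 10 helper and regulatory T-cell genes and 5 of 10 germinal centre genes. The cytokine gene Il21 is counted in both of the latter lists. The lists were chosen with earlier results of these data known, so such counts are a description. The higher genes included several genes of blood vessels and 2 of 7 marginal zone macrophage genes, though 3 of the 7 lay below 0. Over all tested genes 7735 fold changes lay below 0 and 7777 above, with a median of 0.00. With each library scaled to its total instead of the authors' size factors, 163 genes were called higher and 120 lower, so the balance of the directions depends on the scaling. The number of calls also depends on single libraries. It fell to 62 without old mTOR replicate 1, 79 without old WT replicate 1, 109 without old WT replicate 2 and 150 without old WT replicate 3. It was 247 without old mTOR replicate 3 and rose to 363 without old mTOR replicate 2. It was 152, 183 and 184 without young mTOR replicate 1, 2 or 3, and 328, 221 and 317 without young WT replicate 1, 2 or 3. The young libraries enter only through the shared estimate of the spread. In all 6 refits without 1 old library, 44 of the 281 genes stayed called. In the 23-month animals alone, 2 of each genotype, the effector, helper and germinal centre lists held 3, 2 and 2 lower calls. Their medians there were -1.16, -1.29 and -0.97. The plasma cell, MHC class I, interferon-stimulated and inflammatory cytokine lists held no call in those animals.

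**Figure D1:**
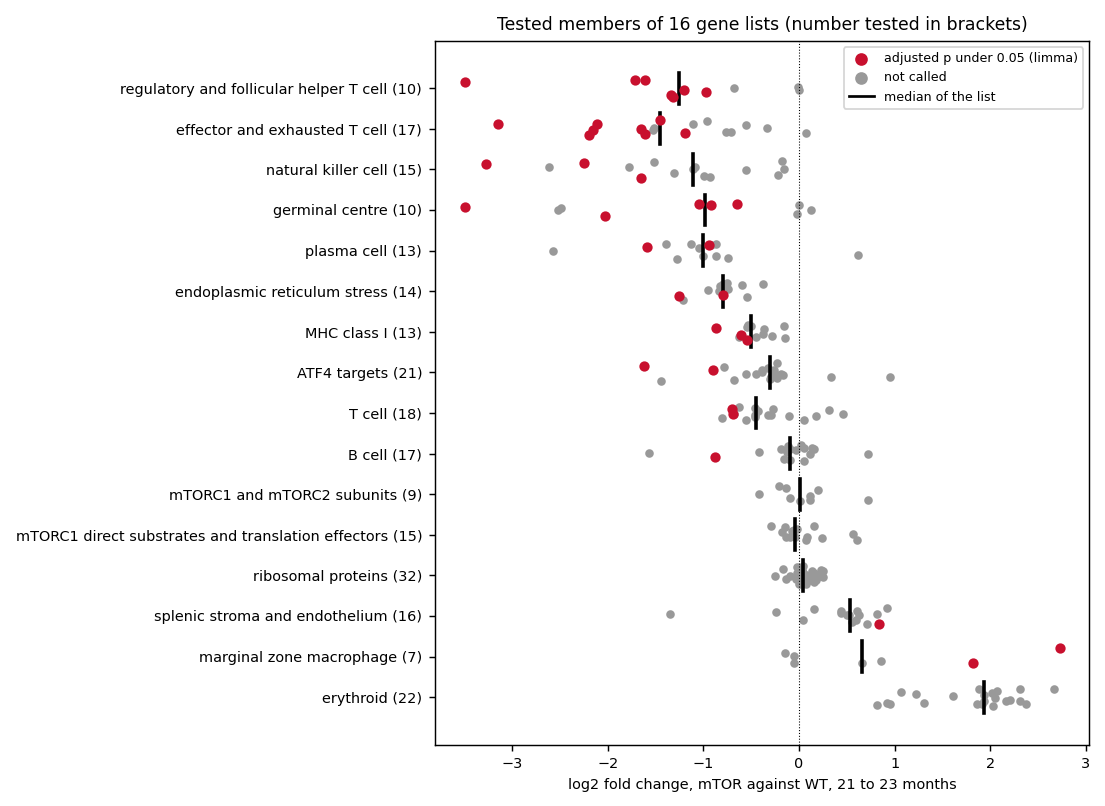
Log2 fold change of mTOR against WT spleen at 21 to 23 months (x axis) for the tested members of 16 gene lists (rows, number tested in brackets). Red points passed an adjusted p under 0.05 in limma, grey points did not, and black bars mark list medians, which run from -1.45 for effector and exhausted T cell genes to 1.93 for erythroid genes.

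The transcript of Mtor itself (chromosome 4, 148448611 to 148557683, plus strand, GRCm38) was lower in the old mTOR animals, but not past the threshold. Its values were 346, 342 and 330 in WT and 230, 256 and 276 in mTOR. The groups did not overlap, and the fold change was -0.42 (SE 0.13, limma adjusted p = 0.133, unadjusted p = 0.00701). At 5 months the fold change was -0.47 (adjusted p = 0.0832). The labels do not say which part of the gene the genotype alters, so a gene-wide count is only a partial check of it.

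No other member of the mTOR pathway lists was called. Of 9 tested subunits of the 2 complexes none passed, with a median of 0.01. Rptor, the scaffold of mTORC1, stood at 387, 421 and 352 in WT and 363, 461 and 437 in mTOR, and its ranges overlapped (0.11, SE 0.13, adjusted p = 0.78). Rictor, the scaffold of mTORC2, overlapped as well (0.11, adjusted p = 0.765). Deptor, an inhibitor that binds both complexes, did not overlap, at 455, 288 and 471 in WT against 713, 573 and 684 in mTOR, with a fold change of 0.72 (SE 0.23, adjusted p = 0.13).

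Of 15 tested upstream brakes, such as Tsc1 and Tsc2, and of 19 tested upstream activators, such as Rheb and the Rag GTPases, none was called, and the list medians were -0.00 and -0.07. The same held for 15 substrates and translation effectors (median -0.05). In that list Rps6kb1, the S6 kinase, changed by -0.14 (adjusted p = 0.797) and Eif4ebp1, the translation repressor, by -0.02 (adjusted p = 0.986). The smallest p there belonged to Eef2k, the kinase of elongation factor 2, at 0.56 (adjusted p = 0.078). Ribosomal protein genes (0 of 32 called, median 0.04), ribosome biogenesis genes (0 of 22, median -0.01), cholesterol synthesis genes (0 of 18, median -0.26) and nuclear respiratory chain genes (0 of 24, median -0.10) held no call either. Lysosome and autophagy (23 tested, median -0.12), cytosolic heat shock (11, -0.16), complement (17, -0.04), circadian clock (13, 0.05), iron handling (13, 0.36), monocyte (11, -0.32), marginal zone B-cell (11, -0.02) and blood stem cell genes (12, 0.38) held none. By comparison 1.81% of all tested genes were called.

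**Figure D2:**
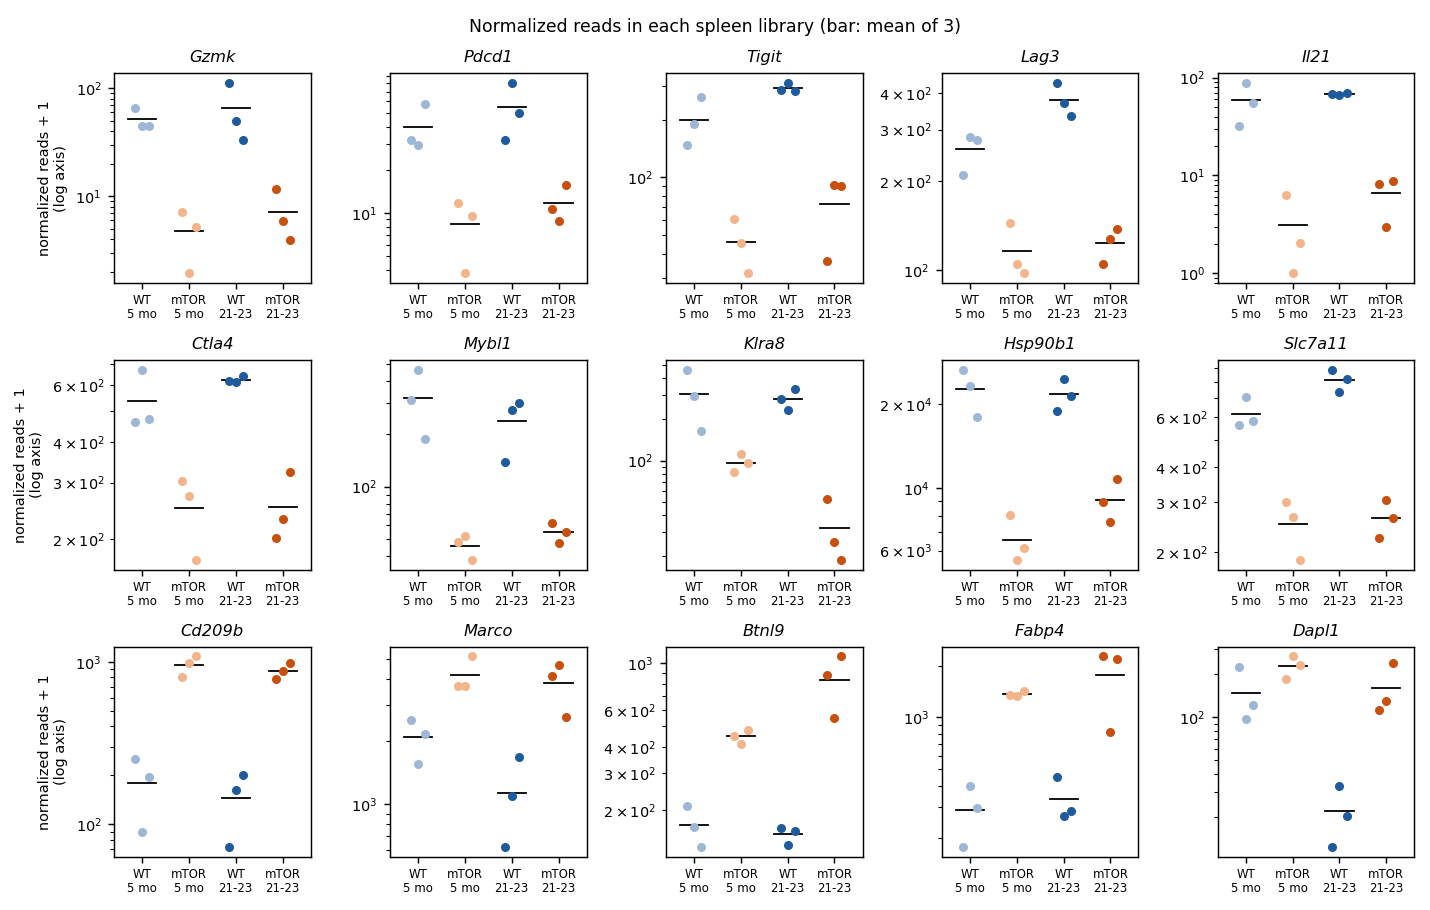
Normalized reads plus 1 (log axis) of 15 genes in each of the 12 spleen libraries, by genotype and age, with a bar at the mean of the 3 animals. In the old animals the WT and mTOR points of each gene shown do not overlap, as for Il21, at 65.0 to 68.2 in WT and 1.95 to 7.86 in mTOR. All 15 genes were called in the old comparison, a choice that favours groups without overlap.

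Genes of effector and exhausted T cells were lower in the old mTOR spleens: 8 of 17 tested members were called lower and none higher, with a median of -1.45, and 16 of 17 fold changes were below 0. Lag3, a brake on activated T cells, stood at 431, 368 and 332 in WT and 104, 127 and 137 in mTOR. The groups were well apart, and the fold change was -1.61 (SE 0.19, limma adjusted p = 0.00149). Tigit, an inhibitory receptor of T cells and natural killer cells, stood at 284, 310 and 281 in WT and 35.9, 90.7 and 89.4 in mTOR (-2.12, SE 0.34, adjusted p = 0.0111). Here mTOR replicate 1 was lowest, and the groups did not overlap. Pdcd1, which encodes the checkpoint receptor PD-1, had 31.3, 79.9 and 48.8 in WT and 9.57, 7.81 and 14.7 in mTOR, again without overlap (-2.16, SE 0.48, adjusted p = 0.0414). Gzmk, a granule protease of cytotoxic T cells, had 112, 49.0 and 32.6 in WT and 10.8, 4.88 and 2.95 in mTOR (-3.15, SE 0.57, adjusted p = 0.0183). All 3 mTOR values lay below the lowest WT value, although the WT animals differed among themselves.

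Transcription factors of these cells fell too. Tbx21, which encodes T-bet, the driver of the type 1 helper and cytotoxic programme, had 684, 556 and 493 in WT and 215, 257 and 164 in mTOR (-1.45, SE 0.19, adjusted p = 0.00387). Tox, a factor of chronically stimulated T cells, fell by 1.20 on the log2 scale (SE 0.21, adjusted p = 0.0167), and Eomes, a relative of T-bet, fell by 1.65 (SE 0.34, adjusted p = 0.0321). Neither overlapped between the groups. For Eomes, WT replicate 2 stood far above the other WT animals, at 587 against 201 and 236. Ccl4, a chemokine of activated lymphocytes and myeloid cells, changed by -2.20 (SE 0.42, adjusted p = 0.024). Havcr2, which encodes the receptor TIM-3, was the member above 0, at 0.07 (adjusted p = 0.92).

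The calls of Lag3, Tigit and Tbx21 held in each of the 6 refits without 1 old library. That of Tox was lost without WT replicate 2 or mTOR replicate 1 (highest adjusted p 0.0602), that of Gzmk without WT replicate 1 or 2 (highest 0.0831), that of Ccl4 without WT replicate 1, WT replicate 2 or mTOR replicate 3 (highest 0.108), and that of Eomes without WT replicate 2, mTOR replicate 1 or mTOR replicate 2 (highest 0.119). The call of Pdcd1 held only without mTOR replicate 3 (highest 0.152). Without WT replicate 2 the list held 3 calls.

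Among helper and regulatory T-cell genes 7 of 10 tested members were called lower and none higher, with a median of -1.26. Il21, the cytokine by which follicular helper T cells drive germinal centre B cells (chromosome 3, 37222759 to 37232636, minus strand), had 66.7, 65.0 and 68.2 in WT and 7.18, 1.95 and 7.86 in mTOR. The old WT animals were nearly alike and all mTOR animals were far below them (-3.50, SE 0.63, adjusted p = 0.0179). Ctla4, the checkpoint receptor carried by regulatory T cells, had 617, 615 and 641 in WT and 201, 230 and 323 in mTOR (-1.34, SE 0.23, adjusted p = 0.0129). Ikzf2, which encodes the regulatory T-cell factor Helios, had 144, 145 and 187 in WT and 44.3, 41.0 and 72.7 in mTOR (-1.61, SE 0.24, adjusted p = 0.00777). Neither gene overlapped between the groups.

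The other called members were Tnfrsf4, the costimulatory receptor OX40 (-1.72, adjusted p = 0.00786), Icos, the costimulator of follicular helper cells (-0.97, adjusted p = 0.0162), Sh2d1a, an adaptor needed for T-cell help to B cells (-1.20, adjusted p = 0.0191), and Izumo1r, the folate receptor 4 of regulatory T cells (-1.32, adjusted p = 0.0208). In contrast, Cxcr5, the homing receptor of follicular helper cells and B cells, was at -0.00 (adjusted p = 0.996) and Maf at -0.01 (adjusted p = 0.99). Foxp3, the defining factor of regulatory T cells, did not pass the filter on low values. Tnfrsf18 of this list, Ms4a1 of the B-cell list and B2m of the MHC class I list did not pass either. Whether such low values reflect the tissue or the assignment of reads was not tested. Ikzf2 and Tnfrsf4 stayed called in all 6 refits, and Ctla4 in 5, lost without mTOR replicate 1 (adjusted p 0.058). Tnfrsf4 lies on chromosome 4, as Mtor does, and its position is given below. The calls of Icos and Sh2d1a were lost in 3 and 2 refits (highest 0.0688 without WT replicate 1 and 0.0877 without mTOR replicate 1), and that of Izumo1r in 4 (highest 0.0855, without mTOR replicate 1). The call of Il21 was lost without any of the 3 WT animals (highest adjusted p 0.0688), and without mTOR replicate 1 the list held 3 calls.

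Of 18 general T-cell genes tested, 2 were called lower, the coreceptor gene Cd4 (-0.69, SE 0.15, adjusted p = 0.0382) and the adhesion gene Cd2 (-0.70, SE 0.16, adjusted p = 0.0414), and the list median was -0.45. Cd4 had 2005, 1516 and 1435 in WT and 964, 969 and 1116 in mTOR, without overlap, and the call was lost in 4 of the 6 refits (highest adjusted p 0.145, without WT replicate 1). The call of Cd2 was lost in 5 (highest 0.143, without WT replicate 2). Cd3e, a subunit of the T-cell receptor complex, had 442, 749 and 782 in WT and 585, 381 and 660 in mTOR, and Cd8a, the coreceptor of cytotoxic T cells, had 237, 760 and 345 in WT and 501, 433 and 553 in mTOR. Both overlapped, with fold changes of -0.27 (adjusted p = 0.726) and 0.32 (adjusted p = 0.725). In bulk spleen, fewer cells of a type and less RNA per cell cannot be told apart.

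Among 12 genes of naive T cells 1 was called, and it was higher. Dapl1, a gene marking naive and early memory CD8 T cells, had 11.3, 32.0 and 19.3 in WT and 111, 129 and 240 in mTOR (2.91, SE 0.39, adjusted p = 0.00391). The lowest mTOR value was above the highest WT value, and the call held in all 6 refits. Lef1, a transcription factor kept high before T cells are activated, had a fold change of 1.03 (adjusted p = 0.065), while Ccr7, their homing receptor, was at 0.00 (adjusted p = 0.998).

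Natural killer genes were below 0 in 15 of 15 tested members (median -1.11), and 3 were called lower, of which Eomes is also in the T-cell list. Klra8, which encodes the activating receptor Ly49H, had 281, 235 and 335 in WT and 51.4, 24.4 and 17.7 in mTOR (-3.27, SE 0.38, adjusted p = 0.00144). S1pr5, the sphingosine phosphate receptor by which natural killer cells leave lymphoid tissue, had 220, 272 and 138 in WT and 41.9, 76.1 and 22.6 in mTOR (-2.25, SE 0.36, adjusted p = 0.0105). Neither gene overlapped between the groups, and both stayed called in all 6 refits. Klra8 belongs to a family of near-identical neighbouring genes, so how its reads were assigned is uncertain. Other defining genes of the lineage were not called, among them Ncr1 (-1.30, adjusted p = 0.112) and Klrb1c (-0.22, adjusted p = 0.82).

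Germinal centre genes were lower, with 5 of 10 tested members called lower, none higher, and a median of -0.98. Mybl1, a transcription factor of germinal centre B cells, had 137, 272 and 297 in WT and 61.0, 46.8 and 54.0 in mTOR (-2.03, SE 0.33, adjusted p = 0.0111). S1pr2, the receptor that holds B cells inside the germinal centre, had 135, 155 and 172 in WT and 71.8, 78.1 and 71.7 in mTOR (-1.04, SE 0.19, adjusted p = 0.0183). Neither overlapped. Fas, the death receptor raised on germinal centre B cells, was called at -0.92 (adjusted p = 0.0262) and Basp1, a membrane-associated protein of these cells, at -0.65 (adjusted p = 0.0427), and Il21 is a member here too. Bcl6, their master regulator, was not called, and 792, 721 and 938 in WT overlapped 826, 902 and 691 in mTOR (-0.02, adjusted p = 0.986).

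Mybl1 stayed called in all 6 refits, S1pr2 in 3 (highest adjusted p 0.0691, without mTOR replicate 1), Fas in 2 (highest 0.112, without WT replicate 1) and Basp1 in none (highest 0.163, without WT replicate 1). Without WT replicate 3 the germinal centre list held 1 call. Of 17 general B-cell genes, 1 was called, Cd72, an inhibitory B-cell receptor (-0.88, SE 0.18, adjusted p = 0.0305, lost without WT replicate 1 or mTOR replicate 1, highest 0.121), and the list median was -0.10. Cd79a, a signalling subunit of the B-cell receptor, was not called (0.02, adjusted p = 0.976). Ms4a1, another member of the list, did not pass the filter on low values and was not tested.

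Plasma cell genes had a median of -1.0 over 13 tested members, 12 of them below 0, and 2 were called lower. Fkbp11, a folding enzyme of secretory cells, had 65.4, 92.7 and 65.1 in WT and 23.9, 17.6 and 31.4 in mTOR (-1.59, SE 0.29, adjusted p = 0.0191). Ell2, an elongation factor that favours secreted antibody messages, had 2504, 3148 and 2143 in WT and 1266, 1115 and 1694 in mTOR (-0.94, SE 0.19, adjusted p = 0.0296). Both were without overlap, and the calls were lost in 3 refits for Fkbp11 (highest adjusted p 0.0722, without WT replicate 2) and 4 for Ell2 (highest 0.109, without mTOR replicate 1). Without WT replicate 1 or mTOR replicate 1 no plasma cell gene was called.

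Antibody genes themselves were variable between animals. Ighm, the mu heavy chain, had 196218, 392274 and 153868 in WT and 54227, 68769 and 121491 in mTOR, without overlap and without a call (-1.57, adjusted p = 0.0754). Ighg2c, the IgG2c heavy chain, overlapped, at 10620, 1550 and 11970 in WT and 1824, 558 and 906 in mTOR (-2.58, adjusted p = 0.106). At 5 months the same gene was called, at -5.30 (adjusted p = 0.00347), with 7 plasma cell genes called lower at that age. Of 175 tested antibody variable segments, whose sequences are alike enough to leave read assignment uncertain, 8 were called lower and none higher, with a median of -0.65.

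Genes of the endoplasmic reticulum stress list were below 0 in 14 of 14 tested members (median -0.79), and 2 were called lower. The list holds chaperones, which fold secreted proteins and are abundant in plasma cells, beside other genes such as Xbp1 and Edem1. Hsp90b1, the chaperone GRP94, had 18945, 24648.5 and 21430 in WT and 8947, 7593 and 10814 in mTOR (-1.26, SE 0.19, adjusted p = 0.00869). Hspa5, the chaperone BiP, had 9375, 12591 and 8398 in WT and 5684, 5004 and 6646 in mTOR (-0.80, SE 0.17, adjusted p = 0.0373). Neither overlapped. The call of Hsp90b1 held in all 6 refits and that of Hspa5 in 2 (highest adjusted p 0.121, without WT replicate 2). Of the plasma cell genes described above 12 of 13 were below 0 as well, and the part of plasma cell number in these values was not tested.

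Because all 14 fold changes lay below 0, though only 2 were called, the promoters of these genes are shown for the letters of the endoplasmic reticulum stress element, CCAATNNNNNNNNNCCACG, a motif known from chaperone genes and searched on both strands. RefSeq promoters (GRCm38.p6, 250 bases before to 50 after the start) were matched for 12 of the 14 members, and 6 of these held the letters: Hspa5, Hsp90b1, Pdia6, Dnajc3, Creld2 and Calr. Among all 32851 promoter windows 0.119% held them, and among the 11316 tested genes with a promoter 18 did (0.159%). The 250 bases before the start of the 2 called genes are given below in gene direction, with the matches in capitals. Hspa5 lies on the plus strand at chr2:34771840-34772089 and Hsp90b1 on the minus strand at chr10:86705445-86705694, where the second match reads on the opposite strand of the gene.
Hspa5: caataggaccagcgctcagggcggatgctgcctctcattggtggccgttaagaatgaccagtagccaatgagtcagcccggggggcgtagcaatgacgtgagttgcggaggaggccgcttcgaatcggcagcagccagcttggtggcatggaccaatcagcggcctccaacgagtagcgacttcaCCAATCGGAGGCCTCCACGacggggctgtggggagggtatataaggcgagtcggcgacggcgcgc
Hsp90b1: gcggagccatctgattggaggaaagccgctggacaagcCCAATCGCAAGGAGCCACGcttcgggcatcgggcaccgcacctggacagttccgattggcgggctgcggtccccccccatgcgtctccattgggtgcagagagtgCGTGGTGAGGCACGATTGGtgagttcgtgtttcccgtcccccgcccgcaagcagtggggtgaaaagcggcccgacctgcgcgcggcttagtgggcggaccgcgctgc
The 4 other members with a match had fold changes of -0.83 (Pdia6), -0.55 (Dnajc3), -1.22 (Creld2) and -0.38 (Calr), none of them called. A match of letters is a description of the window and does not show binding. The motif is known from chaperone genes, so its share among these members says nothing about the fold changes.

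Targets of ATF4, the transcription factor of amino acid shortage whose translation mTORC1 promotes, were below 0 in 19 of 21 tested members (median -0.30), with 2 called lower. Slc7a11, the cystine importer, had 884, 735 and 819 in WT and 224, 304 and 263 in mTOR, far apart (-1.63, SE 0.18, adjusted p = 0.00119, called in all 6 refits). Psat1, an enzyme of serine synthesis, had 241, 345 and 207 in WT and 133, 126 and 156 in mTOR (-0.90, SE 0.21, adjusted p = 0.0476), and its call held only without WT replicate 3 (highest adjusted p 0.16). Asns, the asparagine synthetase, was at -0.19 (adjusted p = 0.94), and Ddit3, the factor CHOP, at -0.25 (adjusted p = 0.72).

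The core letters of the element that ATF4 binds, TGATGNAA, searched on both strands, stood in the promoters of 7 of the 18 list members matched, against 3.97% of all windows and 2.96% of tested genes. In Slc7a11, shown as the member with the largest called change, 2 matches on opposite strands stand within the 250 bases before the start (minus strand, chr3:50443614-50443863, GRCm38.p6, RefSeq), and they do not overlap.
Slc7a11: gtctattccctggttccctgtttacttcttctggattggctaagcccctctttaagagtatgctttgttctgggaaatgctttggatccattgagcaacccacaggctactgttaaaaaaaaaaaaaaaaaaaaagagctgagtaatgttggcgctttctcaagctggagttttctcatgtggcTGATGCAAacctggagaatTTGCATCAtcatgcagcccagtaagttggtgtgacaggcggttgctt
In the promoter windows of Psat1 the letters were not found. The list was written from known ATF4 targets, so its share of matches says nothing about the fold changes.

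Genes of MHC class I presentation were below 0 in 13 of 13 tested members (median -0.51). In the 23-month animals alone no member was called (median -0.48). B2m, H2-T23 and Psmb10 did not pass the filter on low values and were not tested. Nlrc5, the transactivator of these genes, had 2142, 1805 and 1637 in WT and 882, 1043 and 1128 in mTOR (-0.87, SE 0.14, adjusted p = 0.0095, called in all 6 refits). Psmb9, an immunoproteasome subunit (-0.61, adjusted p = 0.0296), and Tap1, a peptide transporter (-0.55, adjusted p = 0.0373), were called without overlap between the groups, but each in 1 of the 6 refits only (highest adjusted p 0.117 and 0.135, both without mTOR replicate 1). The classical heavy chain H2-K1 was at -0.53 (adjusted p = 0.12), and its reads may be shared with close relatives. MHC class II genes showed no call in 10 tested members, with a median of 0.00.

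Among interferon-stimulated genes 3 of 22 were called lower: Zbp1, a sensor of Z-form nucleic acid (-0.79, adjusted p = 0.0244), Oas1a, an antiviral synthetase (-0.93, adjusted p = 0.0283), and Gbp2, a guanylate-binding protein (-0.77, adjusted p = 0.0415). Their calls held in 3, 1 and 1 of the 6 refits (highest adjusted p 0.104, 0.117 and 0.158). Ifit1 (-0.19, adjusted p = 0.82) and Isg15 (-0.02, adjusted p = 0.99), common reporters of type I interferon, were not called. Of 12 inflammatory cytokine genes 2 were lower, Ccl4 and Il12b. Il12b, the p40 subunit of interleukins 12 and 23, had 108, 81.0 and 99.7 in WT and 32.3, 14.6 and 20.6 in mTOR, without overlap (-2.11, SE 0.34, adjusted p = 0.0111, lost without WT replicate 1 at 0.0517).

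Marginal zone macrophages have few known specific genes, and 2 of the 7 tested were called higher. The list was mixed, with 4 members above 0, 3 below and a median of 0.66. In the 23-month animals alone it held 1 call and a median of 0.12. Cd209b, which encodes the lectin SIGN-R1 that binds bacterial sugars (chromosome 8, 3917655 to 3926844, minus strand), had 71.4, 161 and 198 in WT and 780, 875 and 987 in mTOR. The mTOR animals were close together and far above every WT animal (2.73, SE 0.37, adjusted p = 0.0045, called in all 6 refits). Cd209b has close relatives in the genome, so some of its reads may be shared. Marco, the scavenger receptor of these cells, had 620, 1092 and 1689 in WT and 4122, 4667 and 2626.2 in mTOR, without overlap (1.82, SE 0.32, adjusted p = 0.0156, lost without mTOR replicate 1 at 0.0653). Other members were not called: Siglec1, a marker of the neighbouring metallophilic macrophages, was at 0.66 (adjusted p = 0.36) and Timd4 at -0.05 (adjusted p = 0.95).

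Red pulp macrophage genes held 1 call in 15, Cd163, the haemoglobin scavenger receptor, with 1147, 498 and 1519 in WT and 3319, 2288 and 2782 in mTOR (1.53, SE 0.31, adjusted p = 0.0297). The groups did not overlap, and the call was lost without WT replicate 1, mTOR replicate 1 or mTOR replicate 3 (highest adjusted p 0.117). Spic, the factor that specifies these macrophages, was at 0.31 (adjusted p = 0.61). Of 16 dendritic cell genes 1 was called, Clec9a, a receptor for dead cells on cross-presenting dendritic cells, at 773, 814 and 999 in WT and 1565, 1512 and 1519 in mTOR (0.84, SE 0.16, adjusted p = 0.0193, lost in 3 refits, highest adjusted p 0.0919 without WT replicate 1).

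Several genes of blood vessels were called higher in the old mTOR spleens, most of them outside the list of that tissue. In the list of splenic stroma and endothelium 14 of 16 tested members were above 0 (median 0.54), and 1 was called, Kdr, the receptor VEGFR2, with 512, 405 and 563 in WT and 982, 768 and 875 in mTOR (0.83, SE 0.14, adjusted p = 0.0129). The named genes with large increases held several more endothelial genes. Btnl9, a butyrophilin-like protein of capillary endothelium, had 164, 135 and 159 in WT and 876, 544 and 1075 in mTOR (2.39, SE 0.22, adjusted p = 0.000409). Fabp4, a fatty acid carrier of capillaries and fat cells, had 451, 265 and 283 in WT and 2262, 826 and 2176 in mTOR (2.30, SE 0.36, adjusted p = 0.00971). Both stayed called in all 6 refits. In each of these genes mTOR replicate 2, the 21-month animal, was the lowest of its group, and no mTOR value reached down to the WT range.

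Emcn, the endothelial sialomucin endomucin, had 64.7, 83.1 and 32.6 in WT and 462, 175 and 532 in mTOR (2.62, SE 0.44, adjusted p = 0.0129). Sele, the adhesion molecule E-selectin, had 27.3, 42.6 and 24.4 in WT and 150, 67.3 and 135 in mTOR (1.82, SE 0.36, adjusted p = 0.0288). Exoc3l2, an exocyst-related gene of endothelium, had 49.4, 32.0 and 63.1 in WT and 167, 120 and 166 in mTOR (1.67, SE 0.27, adjusted p = 0.0111). None overlapped. Emcn, Kdr and Exoc3l2 lost their calls without mTOR replicate 1 (adjusted p 0.058, 0.0588 and 0.0541), and Sele without WT replicate 1, WT replicate 3, mTOR replicate 1 or mTOR replicate 3 (highest 0.117).

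A list of 40 blood vessel endothelial genes was written after these values had been seen and includes them, so its count is a description. Of its 39 tested members 15 were called higher and none lower, 38 were above 0, and the median was 0.79. Among the further called members were Flt1, the receptor VEGFR1 (0.88, adjusted p = 0.0476), Tek, the angiopoietin receptor (1.14, adjusted p = 0.043), Cd300lg, a glycoprotein of capillary endothelium (1.60, adjusted p = 0.00869), and Ackr1, the chemokine-scavenging receptor of venules (2.32, adjusted p = 0.00768). The call of Flt1 was lost in 4 of the 6 refits (highest adjusted p 0.156, without WT replicate 2) and that of Tek in 5 (highest 0.161, without mTOR replicate 1), while Cd300lg and Ackr1 stayed called in all 6. Ackr1 had 7.34, 9.59 and 7.12 in WT and 58.6, 33.2 and 43.2 in mTOR, without overlap. Without mTOR replicate 1 the list held 5 calls, and in the 23-month animals alone 15.

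Vegfa, the growth factor that the receptors encoded by Kdr and Flt1 bind, was the called member of the glycolysis and hypoxia list (1 of 18, list median -0.33). It had 761, 777 and 945 in WT and 1773, 1426 and 1850 in mTOR, without overlap (1.02, SE 0.16, adjusted p = 0.00904, called in all 6 refits). Fabp4 is also counted among 9 tested fat-cell genes, of which it was the only called member. Adipoq, which defines fat cells, was at 0.87 (adjusted p = 0.55). The summed level of the fat-cell list ran from 1273 to 1986 in WT and from 2155 to 3738 in mTOR. That sum includes Fabp4, which by itself ran from 265 to 451 in WT and from 826 to 2262 in mTOR. It therefore does not speak for the other members. The part of fat or vessel tissue in the pieces sampled was not tested. Exocrine pancreas genes, a possible neighbour tissue, were low in all 6 old libraries, summing to between 88.8 and 192 over the 16 genes of the list.

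Col5a1, a fibrillar collagen chain, was the called member of 16 matrix genes (0.89, SE 0.20, adjusted p = 0.0449, held only without mTOR replicate 2, highest adjusted p 0.166). The list median was 0.10.

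The remaining named genes belong to no list. Higher in mTOR were Nr5a2, a nuclear receptor (2.45, adjusted p = 0.0105), Npr3, a clearance receptor for natriuretic peptides (1.89, adjusted p = 0.0487), and Enpep, an aminopeptidase of vessel walls (1.67, adjusted p = 0.0259). The groups did not overlap in any of them, and the calls held in 5, 1 and 2 of the 6 refits, with the highest adjusted p without mTOR replicate 1 (0.0541, 0.151 and 0.0967). Lower were Sostdc1, a secreted inhibitor of BMP and Wnt signals that follicular T cells express (-3.05, SE 0.34, adjusted p = 0.00131), and Rab6b, a Golgi trafficking GTPase (-2.16, SE 0.25, adjusted p = 0.00131). Sostdc1 had 159, 98.1 and 110 in WT and 15.6, 6.83 and 22.6 in mTOR. Rab6b had 213, 231 and 225 in WT and 33.5, 54.6 and 64.8 in mTOR. Both were without overlap and stayed called in all 6 refits. Cfap74, a gene of motile cilia, fell by 3.24 (adjusted p = 0.00497, called in all 6 refits) and the noncoding RNA Otx2os1 by 2.59 (adjusted p = 0.0229, lost in 3, highest 0.0985 without mTOR replicate 1).

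The largest fall was in Camk2b (chromosome 11, 5969644 to 6066362, minus strand), a subunit of the calcium-dependent kinase CaMKII best known from neurons. It had 37279, 31910 and 18145 in WT and 226, 9671 and 513 in mTOR (-4.74, SE 0.94, adjusted p = 0.0264). The groups did not overlap, but mTOR replicate 2 lay far above the other mTOR animals, and the call held only without that library (highest adjusted p 0.1, without WT replicate 1). At 5 months the values were 20056, 22356 and 17193 in WT and 11843, 9835 and 8566 in mTOR, without overlap and without a call (-0.98, adjusted p = 0.602). The other subunit genes were not called: Camk2a at -0.37 (adjusted p = 0.275), Camk2d at -0.32 (adjusted p = 0.425) and Camk2g at 0.04 (adjusted p = 0.942).

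**Figure D3:**
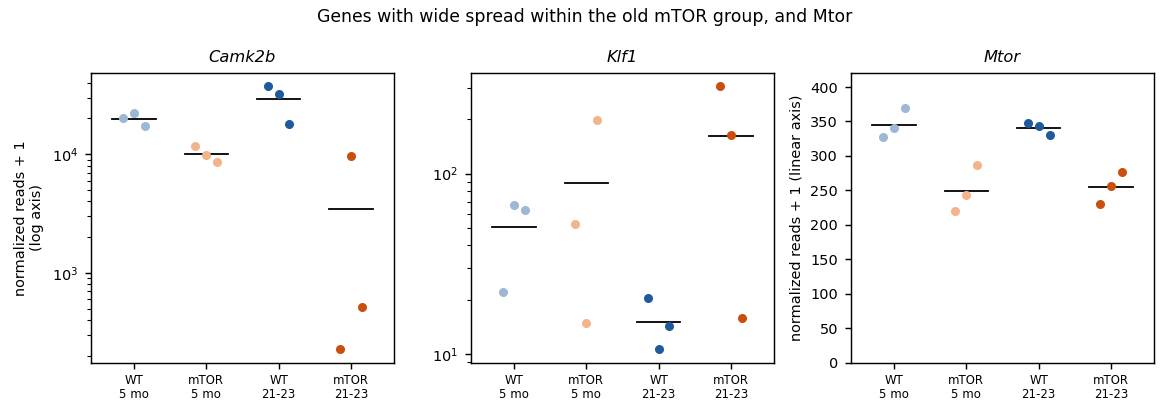
Normalized reads plus 1 of Camk2b, of the red-cell gene Klf1 (log axes) and of Mtor (linear axis from 0) in each of the 12 spleens, with a bar at the group mean. The old mTOR animals are spread from 226 to 9671 for Camk2b and from 14.7 to 304 for Klf1, while Mtor is lower in all 3 than in any old WT animal.

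Red-cell precursor genes differed more among the old mTOR animals than between the genotypes. All 22 tested members had fold changes above 0 (median 1.93), and none was called. Klf1, the master factor of red-cell genes, had 19.3, 9.59 and 13.2 in WT and 304, 163 and 14.7 in mTOR, where replicate 3 lay within the WT range (2.67, SE 1.01, adjusted p = 0.217). The summed level of the red-cell list was 4766, 10742 and 15895 in WT and 80534, 31122 and 5141 in mTOR, so that the groups overlapped. Cell cycle genes (0 of 28 called, median -0.07) followed the same order among the mTOR animals, summing to 29279, 16174 and 5256, against 13346, 14749 and 13072 in WT. Without mTOR replicate 3, 7 red-cell genes were called higher. The part of this spread in the other results was not tested.

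Genes around Mtor were called more often than the rest, as a description. Within 5 Mb of its start on chromosome 4, 14 of 79 tested genes were called (17.7%), against 1.74% of the 15387 other genes with 1 position in the annotation. The largest change of all belonged to Zfp990, a zinc finger gene upstream of Mtor (chromosome 4, 145510759 to 145539188). It had 3.33, 4.26 and 2.04 in WT and 331, 421 and 369 in mTOR (6.51, SE 0.27, adjusted p = 4.44e-08). Of the 14, 6 were higher and 8 lower. Zfp984, a neighbour from the same zinc finger cluster, went the other way (-1.72, adjusted p = 0.000409), as did Draxin, an axon guidance factor, at 126, 90.6 and 108 in WT and 15.6, 27.3 and 22.6 in mTOR (-2.28, SE 0.34, adjusted p = 0.00852). These 3 stayed called in all 6 refits. Mfn2, a fusion protein of mitochondria, was called at -0.57 (adjusted p = 0.0416), and in none of the refits (highest 0.142). Zinc finger genes of this cluster are near-copies of each other, so read assignment among them is uncertain. Of the called genes described above, Tnfrsf4 (chromosome 4, 156013843 to 156016612) and Cfap74 (chromosome 4, 155409190 to 155466823) lie downstream of Mtor, beyond this window. Whether sequence carried along with the mTOR allele plays a part was not tested, inside the window or beyond it.

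**Figure D4:**
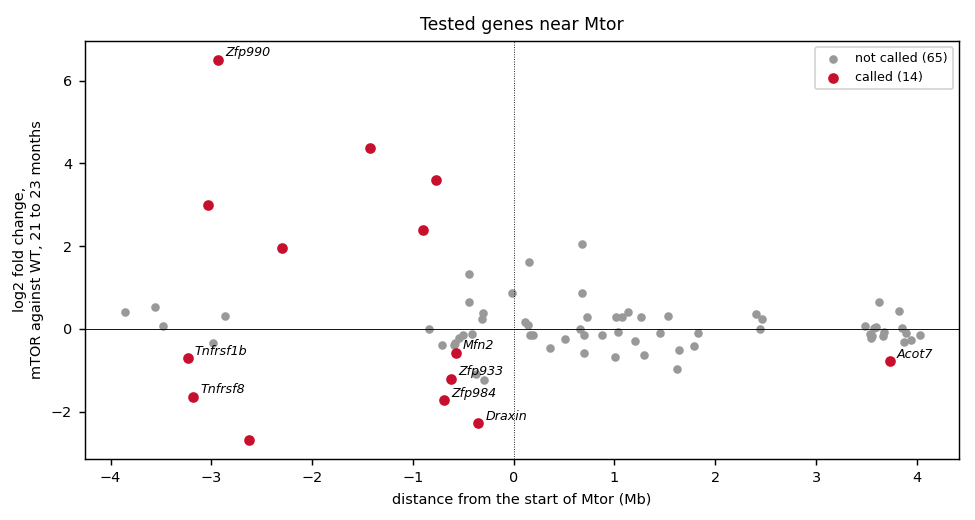
Log2 fold change of mTOR against WT at 21 to 23 months (y axis) for the 79 tested genes within 5 Mb of the start of Mtor, by their distance from it in Mb (x axis, negative is upstream). The 14 called genes are red, and 13 of them lie upstream of Mtor, with Zfp990 highest at 6.51.

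The genotype comparison at 5 months used other animals, but the same fit and its shared estimate of the spread. It called 284 genes (1.83%), 72 higher and 212 lower, and 104 genes were called at both ages, which is 37.0% of the old calls and 36.6% of the young. All 104 had the same direction, 76 lower and 28 higher. Of the 155 genes lower in old mTOR spleen 154 were below 0 at 5 months, with a median of -1.04 there against -1.27 in the old. Of the 126 higher genes 122 were above 0, with medians of 0.57 at 5 months and 1.20 in the old. Both sets, and the genes named below, were picked by their call in the old comparison. That choice favours values farther from 0 in the old. Exocrine pancreas genes, low in the old libraries, summed to as much as 27725 in a young mTOR spleen, and their part in the young values was not tested. Among the T-cell genes, Il21 had a fold change of -3.50 in old and -4.52 in young spleen, Tigit -2.12 and -2.13, and Lag3 -1.61 and -1.16. Others were farther from 0 in the old, with Eomes at -1.65 and -0.85, Sh2d1a at -1.20 and -0.44, Cd2 at -0.70 and -0.23, and Cd4 at -0.69 and -0.35.

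Some genes were called in the old comparison and not in the young, among them Dapl1 (0.70 at 5 months, adjusted p = 0.342), Marco (1.01, adjusted p = 0.119) and Klra8 (-1.56, adjusted p = 0.058). The difference between the ages was tested as an interaction, and no gene passed it (0.0% called), in limma, edgeR or DESeq2. In limma 850 genes had an unadjusted p under 0.05, and the smallest adjusted p was 0.787. For Dapl1 the young WT animals stood at 222, 96.2 and 121, above the old WT animals, while the mTOR animals stood at 185, 264 and 230.

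**Figure D5:**
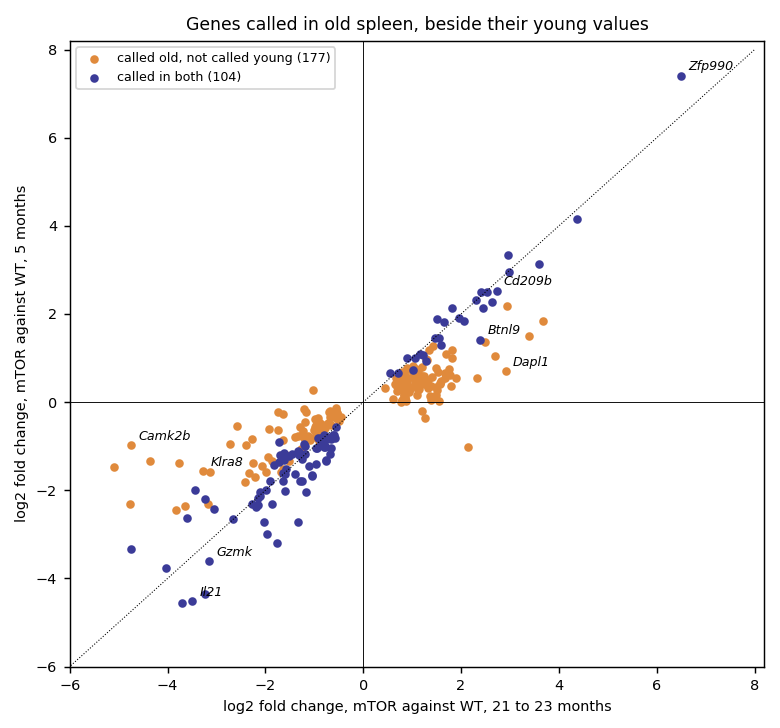
Log2 fold change of mTOR against WT at 21 to 23 months (x axis) and at 5 months (y axis) for the 281 genes called in the old comparison. Blue points (104) were called at both ages, orange points were not called at 5 months, and the dotted line marks equal change.

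The old comparison was also set beside ageing in other spleens of the series, in which 1733 of 16243 tested genes (10.7%) were called between 20 and 3 months. Of 929 genes higher with age and tested here, 26 were called higher in old mTOR spleen and 10 lower, with a median of 0.25 and 293 below 0. Of 752 genes lower with age, 6 were called higher and 11 lower, with a median of -0.04. These counts are to be read against the 0.812% called higher and the 0.999% called lower over all tested genes. With the genes called between 26 and 3 months, 32 higher and 27 lower with age, the medians were -0.32 and 0.18. These lists are much shorter than those of 20 months, whose median of -0.04 was close to 0. The medians are therefore given without a direction for the ageing genes.

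Single genes went either way. Gzmk was higher at 20 than at 3 months in the ageing spleens (2.53, adjusted p = 0.00077) and lower in old mTOR against old WT. Dapl1 was lower with age (-2.68, adjusted p = 0.000309) and higher in mTOR, as was Dntt, which encodes the enzyme that adds bases at antigen receptor joints (-2.25 with age, adjusted p = 0.000964, and 1.69 in mTOR, adjusted p = 0.00971). Emcn (2.11, adjusted p = 0.00108) and Fabp4 (1.73, adjusted p = 0.0205) were higher with age and higher in mTOR. Klra8 was lower with age (-2.59, adjusted p = 0.00145) and lower in mTOR, but was not called at 26 against 3 months (-1.19, limma adjusted p = 0.302). In the WT animals of the mTOR table, means at 5 months and in the old were 51.0 and 64.5 for Gzmk and 307 and 284 for Klra8. They were 289 and 333 for Fabp4, 37.6 and 60.1 for Emcn, and 146 and 20.9 for Dapl1. Genes in this paragraph other than those already named were picked after their values were seen.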

How the data were processed

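Spleen RNA of male mice was sequenced, and per the labels the RNA was total RNA. Per the submitters' processing notes the tools were HISAT2 2.1.0 for GRCm38, bcl2fastq 2.20, DESeq2, R 3.5.1, SAMtools and cutadapt, with no order given. The read counter and annotation are not given in the sources used here. The deposited signal values are read counts of gene symbols, each library scaled by its own size factor. Multiplying by that factor gave back whole numbers (tolerance 0.01) in 100% of the values of the mTOR table. Mitochondrially encoded genes had no reads.

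Genes with a value of 10 or more in at least 3 of the 12 columns were tested (15512 of 51810) with limma 3.58.1 (R 4.3.3, lmFit and eBayes with trend) on log2(value + 1), which understates the change of low genes. All 12 libraries entered 1 model with a mean for each of 4 groups and 8 residual degrees of freedom, tests were 2-sided, and the ages 21 and 23 months were pooled. Titles give each animal its own number. A refit that leaves out an old library keeps the others and their shared spread. edgeR 4.0.16 (quasi-likelihood) called 285 genes and DESeq2 1.42.0 802 on the recovered reads. The ageing spleen table (45 libraries, deposited signal normalized separately) was fitted likewise with a filter of 10 in 5 columns, and no level is compared between the tables. The brain table was not used here.

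Named genes are Mtor, the 12 largest called increases and decreases with a group mean of at least 50, leaving out predicted genes, pseudogenes, receptor segments and sex-linked genes, of each of 46 lists the called members or up to 3 with the smallest p, and the largest called interactions, of which there were none. Lists came from general knowledge, and the endothelial list was added later. Sh2d1a, a list member, is on the X chromosome. Further list members such as Rictor and Ighg2c were picked after values were seen. Lists and rules were chosen with earlier results of these data known. Gene positions are from GENCODE M21 (99.7% of tested genes had 1 position) and promoters from RefSeq. The fits were run on simulated data, where the only condition set was the right direction of recovered changes. Shares recovered and false calls are not given, so that run says nothing of them. Figures used matplotlib 3.10.9 under Python 3.11.15.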

Additional observations from a re-analysis of the deposited data

How the results depend on the processing

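The count of 281 called genes (126 higher, 155 lower) moved by over 1.5 times with no filter on low values (181, of which 67 higher), in DESeq2 (802, with 414 higher and 388 lower), in the 6 old libraries alone (49, with 16 higher and 33 lower), in the 23-month animals alone (131, of which 39 lower) and with library quality weights (423, of which 257 lower). Without 1 old library it ran from 62 to 363, with 20 to 235 higher and 42 to 156 lower. edgeR (285), TMM scaling (285), the age covariate (223), the other pseudocounts (279 and 300) and the stricter filter (215) kept it within 1.5 times. All 49 calls of the old-only fit were among the 281. No named called gene changed direction under any of these settings. Of 64 such genes 43 lost their call in the old-only fit, 37 in the 23-month animals alone, 12 without a filter and 9 each with the age covariate and with column totals. Mtor stayed uncalled throughout (adjusted p 0.0797 to 0.38). The interaction count was 0, except 1 without old mTOR replicate 2. The young count of 284 rose to 908 in DESeq2, in settings added after the data were seen. For genes called at 26 against 3 months the medians were -0.32 (higher with age) and 0.18 (lower with age), against 0.25 and -0.04 at 20 months, which ran from 0.15 to 0.38 and from -0.08 to 0.03 without 1 old library. The cause was not tested. No paired analysis was possible because the labels give the WT and mTOR animals no shared replicate number. With 3 animals a group and 7733716 reads in the shallowest library, small changes in genes of a few reads may not be detectable.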

Other observations

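A few further genes of lists that the results above do not turn on were called. Egr2, an immediate early transcription factor that restrains T-cell activation, had 199, 160 and 210 in WT and 94.5, 82.0 and 115 in mTOR (-0.96, limma adjusted p = 0.0373, held in 1 of 6 refits). Ccng1, a target of p53, had 908, 927 and 811 in WT and 608, 570 and 613 in mTOR (-0.56, adjusted p = 0.0149, held in 3 of 6). The other 14 tested members of the p53 and senescence list were not called, among them Cdkn1a, which encodes the cell cycle inhibitor p21 (-0.32, adjusted p = 0.644), and Cdkn2a, which encodes p16 (-0.62, adjusted p = 0.63). Gp9, a platelet surface protein (-1.75, adjusted p = 0.0382), and Mcpt8, a basophil protease (-2.22, adjusted p = 0.0499), were called at low levels, and their calls held in 0 and 1 of 6 refits. Neutrophil genes were below 0 in 16 of 16 tested members (median -0.84), with no call, and old mTOR replicate 3 had the lowest summed level, 584 against 1468 to 2775 in WT.

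Values of 3 genes close to Mtor may be of interest for their known roles in immune cells or metabolism. Tnfrsf1b, which encodes the tumour necrosis factor receptor TNFR2, had 1354, 1130 and 1121 in WT and 763, 735 and 700 in mTOR (-0.71, adjusted p = 0.0129, lost without WT replicate 1 at 0.0688). Tnfrsf8, which encodes CD30, a receptor of activated lymphocytes, was at -1.64 (adjusted p = 0.0346), and Acot7, an acyl-CoA thioesterase, at -0.78 (adjusted p = 0.0499). The calls of Tnfrsf8 and Acot7 each held in 1 of 6 refits.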
